A study of Mus musculus with 8 samples.

Results

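The response of the wild-type (WT) mouse aorta to vitamin D overload was read from 4 poly-A RNA libraries, 2 from mice given vehicle and 2 from mice given vitamin D (VitD in the labels). The members are the 14453 of 48587 gene symbols (29.75%) with at least 1 CPM (read counts scaled to library size) in at least 2 of these 4 libraries. All groups were whole aortic tree, which carries the vessel wall with its intima, media and adventitia and any tissue left around it. The WT animals were littermate controls of mice labelled as carrying a Tet2 deletion in vascular smooth muscle cells, and the labels state no alleles for them. The sources used here do not give the driver of the deletion, the vitamin D dose, its duration, the age of the mice or how many mice went into a library. Whether replicate libraries stem from different animals is likewise unstated. The p-values below therefore describe variation between libraries, part or all of which could be technical. The 4 libraries labelled knockout (2 vehicle, 2 VitD) entered the fit to help estimate that variation, and 3 of them gave a second view of each change that is described below.

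Vitamin D acts through the vitamin D receptor, and an overload of it raises calcium and phosphate in the blood. In arteries such a load is known to deposit mineral in the media, the layer of smooth muscle and elastic fibres. Smooth muscle cells under that load can lose contractile proteins and take up genes of bone and cartilage, while matrix Gla protein (Mgp), osteopontin (Spp1) and pyrophosphate made by Enpp1 restrain mineral growth. Calcified arteries also draw in macrophages, which clear debris and mineral.

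The 4 WT libraries held 15679274 to 18197924 counts each. Their names carry numbers in a lower and an upper range: both WT vehicle libraries lie in the lower range and both WT VitD libraries in the upper one. Of the knockout libraries, Tet2KO_VitD 1 lies in the upper range and Tet2KO_VitD 2 and both vehicle libraries in the lower one. Within WT, treatment and number range cannot be told apart, and the labels do not say that the ranges are batches. Transcripts of ribosomal proteins took 2.36% and 2.58% of the counts in the vehicle libraries and 5.42% and 5.53% in the VitD libraries. Among the knockout libraries the share was 4.86% in Tet2KO_VitD 1 and 2.11% to 2.58% in the other 3. Across genes, Spearman's rho between exon length and a gene's deviation from its mean over the 8 libraries was 0.245 and -0.0397 in the vehicle libraries and -0.357 and -0.246 in the VitD libraries. The median exon length was 3109.5 bases for genes called higher, 5538 for genes called lower and 4410 for the rest. The part of length and of ribosomal protein share in single results was not tested gene by gene, except through a fit with the length trend removed. Smooth muscle markers were abundant in every WT library: Acta2, smooth muscle actin, stood at 14484 and 13525 CPM under vehicle and 11401 and 7653 CPM under VitD. The endothelial marker Pecam1 (756 and 583 and 1319 and 1003 CPM) and the fat cell marker Adipoq (109.8 and 189 and 150.2 and 164 CPM) were present too. Tet2, an enzyme that oxidises methylated cytosine, was measured in every library: 35.6 and 32.1 CPM under vehicle and 18.6 and 20.3 CPM under VitD in WT, and 42.1 and 35.2 CPM under vehicle and 26.5 and 37.5 CPM under VitD in the libraries labelled knockout. Tet2 was thus not lower in the knockout vehicle libraries than in WT, and counts over the whole gene cannot show the loss of single exons, so those libraries are called by their labels only.

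Under VitD, 3281 of the 14453 genes changed in WT (22.7% of those tested, adjusted p under 0.05). Of these, 1838 (12.7%) rose and 1443 (9.98%) fell, and at an unadjusted p under 0.05 the total was 5724. A rise or fall of at least 4 in log2 was seen for 68 and 16 called genes. The median log2 fold change of all tested genes was 0.01. In 10220 genes (70.7%) the VitD and vehicle libraries did not overlap, with VitD above in 5270 (36.5%) and below in 4950 (34.2%), and all 3281 called genes were among them. Among called genes with a count in every WT library and at least 5 CPM in the higher group, the largest rise was that of Spp1, a secreted phosphoprotein of bone, macrophages and calcified vessel wall. The vehicle libraries gave Spp1 1.24 and 1.59 CPM and the VitD libraries 619 and 726 CPM (log2 8.88, SE 0.659, adjusted p = 0.00103). Hmga2, a chromatin protein normally active in embryonic tissue, had 0 counts in both vehicle libraries and 109 in each VitD library. Against a floor of 3 counts over the vehicle group, Hmga2 was at least 75.9-fold higher. The next largest rises among genes with at least 5 CPM in the higher group were those of Chil3, Il6, Saa3, Cxcl13, Serpina3m, Lcn2, Prg4 and Il1r2, which are genes of macrophages, the acute phase, neutrophils and joint lubrication. The largest falls were those of Mup3, Mir23b, Gprasp2, Fasn, Mir143, S100a7a, Ache, Rgs11, Slc6a7 and Carmn.

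**Figure D1:**
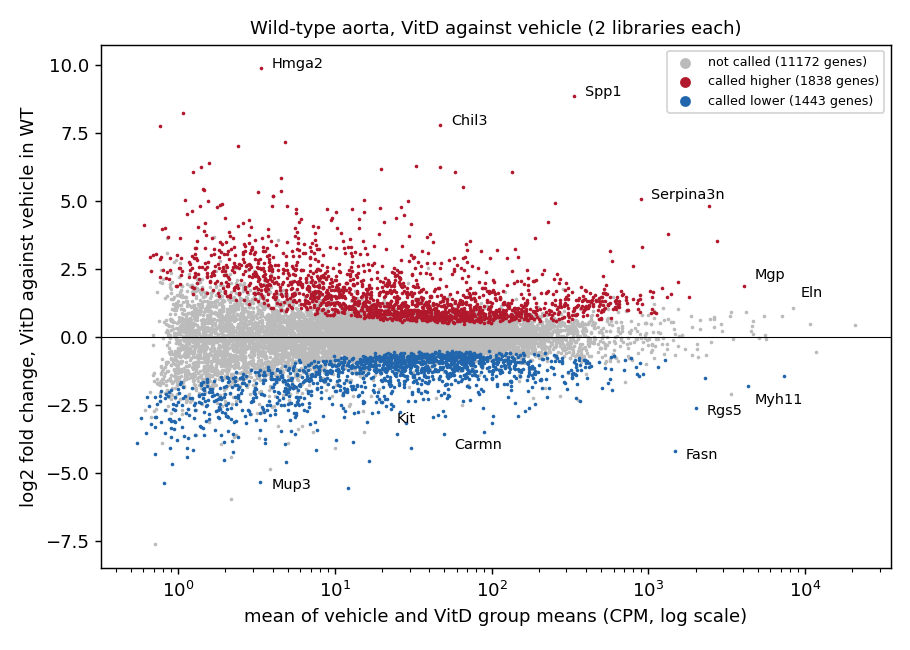
Log2 fold change in WT against the mean level in CPM (log scale) for the 14453 members, with called genes in colour. The 1838 genes called higher reach a fitted log2 of 9.88 (Hmga2, which had 0 counts under vehicle, so this value is no bound), and the 1443 called lower lie mostly within 4 log2 units of 0.

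The settings behind these counts mattered. With each of the 8 libraries left out in turn, the calls numbered 158 to 4975. They fell to 220 without WT_vehicle 1, 585 without WT_vehicle 2, 1080 without WT_VitD 1 and 158 without WT_VitD 2, to 2251 and 2233 without Tet2KO_vehicle 1 and 2, and rose to 4958 and 4975 without Tet2KO_VitD 1 and 2. A group left with 1 library was assumed to vary like the others. With the number range as a covariate 58 genes were called (0.401%). Of these, 56 rose (0.387%) and 2 fell (0.0138%), and 41 of the rises and both falls were also called without the covariate. Only the Tet2KO_VitD group spans both ranges. The covariate was therefore set by Tet2KO_VitD 1 against Tet2KO_VitD 2 alone, 1 library each, and carries any other difference between them. None of the 3281 genes was called in the opposite direction under another setting. With the range in the model the fold change kept its sign for 1818 of the 1838 rises and 1410 of the 1443 falls, and turned for the others.

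**Figure D2:**
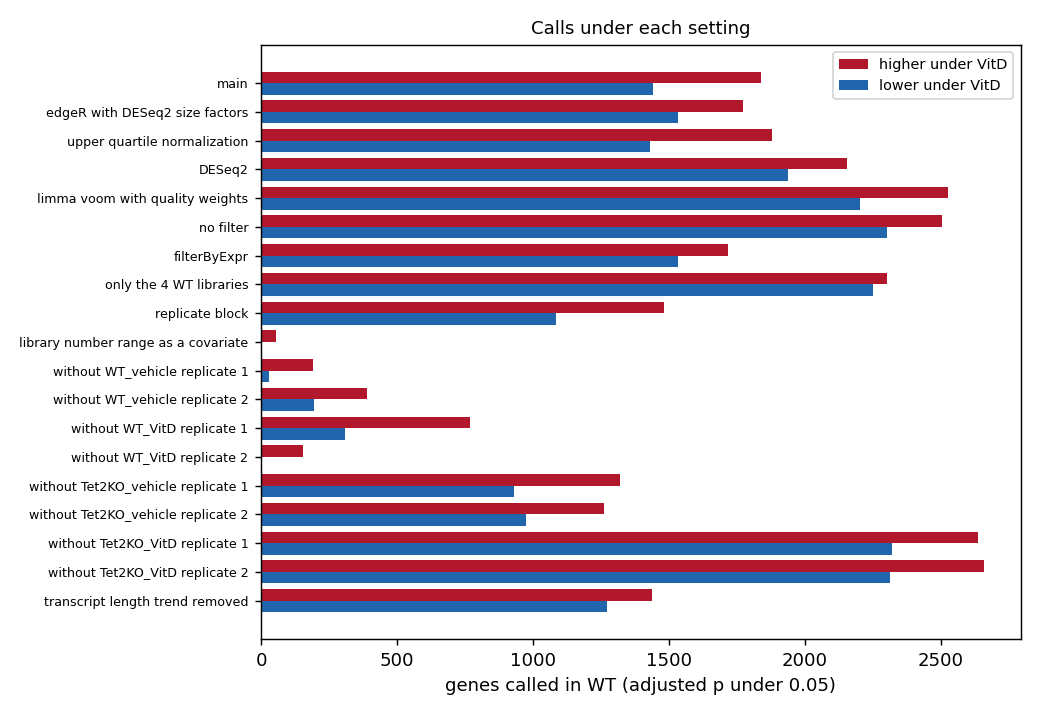
Number of genes called higher (red) and lower (blue) in WT under each setting (adjusted p under 0.05). The totals range from 58 calls with the number range in the model to 4975 without Tet2KO_VitD 2.

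A single comparison of VitD with vehicle lies inside 1 number range: Tet2KO_VitD 2 against Tet2KO_vehicle 1 and 2. It shares no library with the WT contrast, although all 3 enter the estimate of spread. It has 1 treated library and so no test, and a smaller difference there cannot be told apart from one due to genotype, that library or the range. Of the 1838 genes that rose in WT, 1518 (82.6%) lay above both vehicle libraries in it and 69 (3.75%) below both. Of the 1443 that fell, 998 (69.2%) lay below both and 105 (7.28%) above both. Over all tested genes the shares were 34% above and 34.9% below. With only the 4 WT libraries in the fit, which keeps the knockout libraries out of the calls, 73% of 2303 rises lay above both and 58.8% of 2251 falls below both. The differences were smaller than in WT: the median log2 was 0.39 for genes that rose and -0.24 for genes that fell, against 1.35 and -1.23 in WT. The comparison is called the in-range comparison below.

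**Figure D3:**
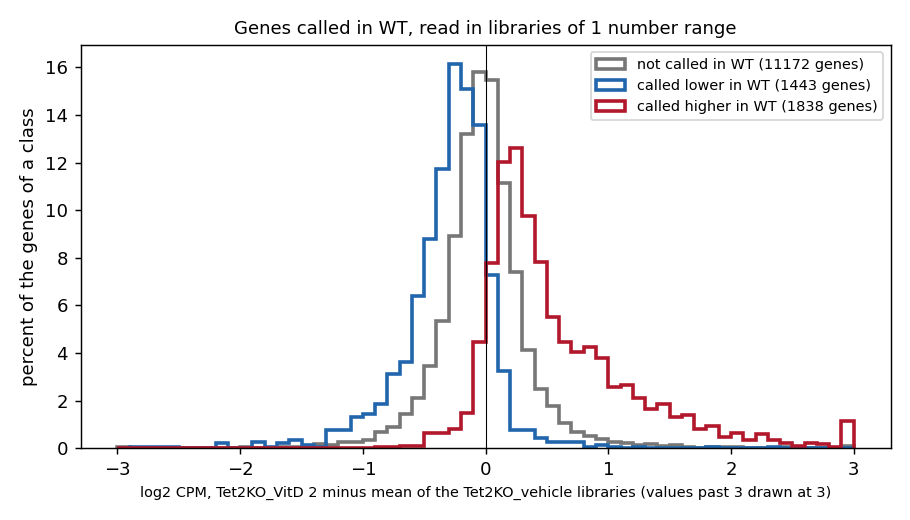
Log2 difference between Tet2KO_VitD 2 and the mean of the knockout vehicle libraries, for genes called higher, called lower or not called in WT (y axis: percent of each class). Genes that rose in WT centre at 0.39, genes that fell at -0.24, and values past 3 are drawn at 3.

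Calls that held in all 8 fits with 1 library left out numbered 121, of which 118 rose and 3 fell. In 120 of these 121 genes the in-range library lay on the same side of both its vehicle libraries, and 32 were also called with the range as a covariate. Over all tested genes 34% lay above both and 34.9% below both. The libraries of the in-range comparison entered the spread behind these calls, so the count of 120 is not independent of the selection. The 3 of the 121 that fell were C1qtnf3, a secreted C1q and TNF related protein, Kit, the stem cell factor receptor of mast cells, and Wdr95. C1qtnf3 stood at 15.5 and 11.1 CPM under vehicle and 1.74 and 1.32 CPM under VitD, and in the in-range comparison at 16.5 and 13.3 CPM under vehicle and 2.02 CPM under VitD. Kit stood at 42.5 and 29.5 CPM under vehicle and 5.09 and 7.04 CPM under VitD (log2 -2.56, SE 0.294, adjusted p = 0.00298). The 118 that rose include Esm1, a proteoglycan of activated endothelium, and Sphk1, which makes sphingosine 1-phosphate. They also include Gfra1, a receptor for GDNF, and Bdkrb1, the inducible kinin receptor. Esm1 stood at 4.15 and 2.38 CPM under vehicle, 64.1 and 52.4 CPM under VitD and, in the in-range VitD library, 23.5 CPM against 6.39 and 3.3 CPM. Gfra1 stood at 1.48 and 1.81 CPM under vehicle and 16.2 and 37.5 CPM under VitD, with 10.6 against 1.54 and 1.73 CPM in range. C1qtnf3, Wdr95 and the 4 genes named here among the rises were chosen after their values were seen. Of the 121, 51 stood in one of 61 gene lists and 70 in none. Each list count below is to be read beside the shares over all tested genes, 12.7% called higher and 9.98% called lower. Where a list below has 0 calls in a direction, edgeR at an unadjusted p under 0.05, DESeq2 and limma voom also gave 0 in that direction. The exceptions are the lymphocyte lists, treated there, and single genes or pairs: 1 lower vitamin D response gene (edgeR unadjusted), 2 lower osteoclast genes (edgeR unadjusted and voom), and 1 higher gene each in the clock and nerve lists (all 3).

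**Figure D4:**
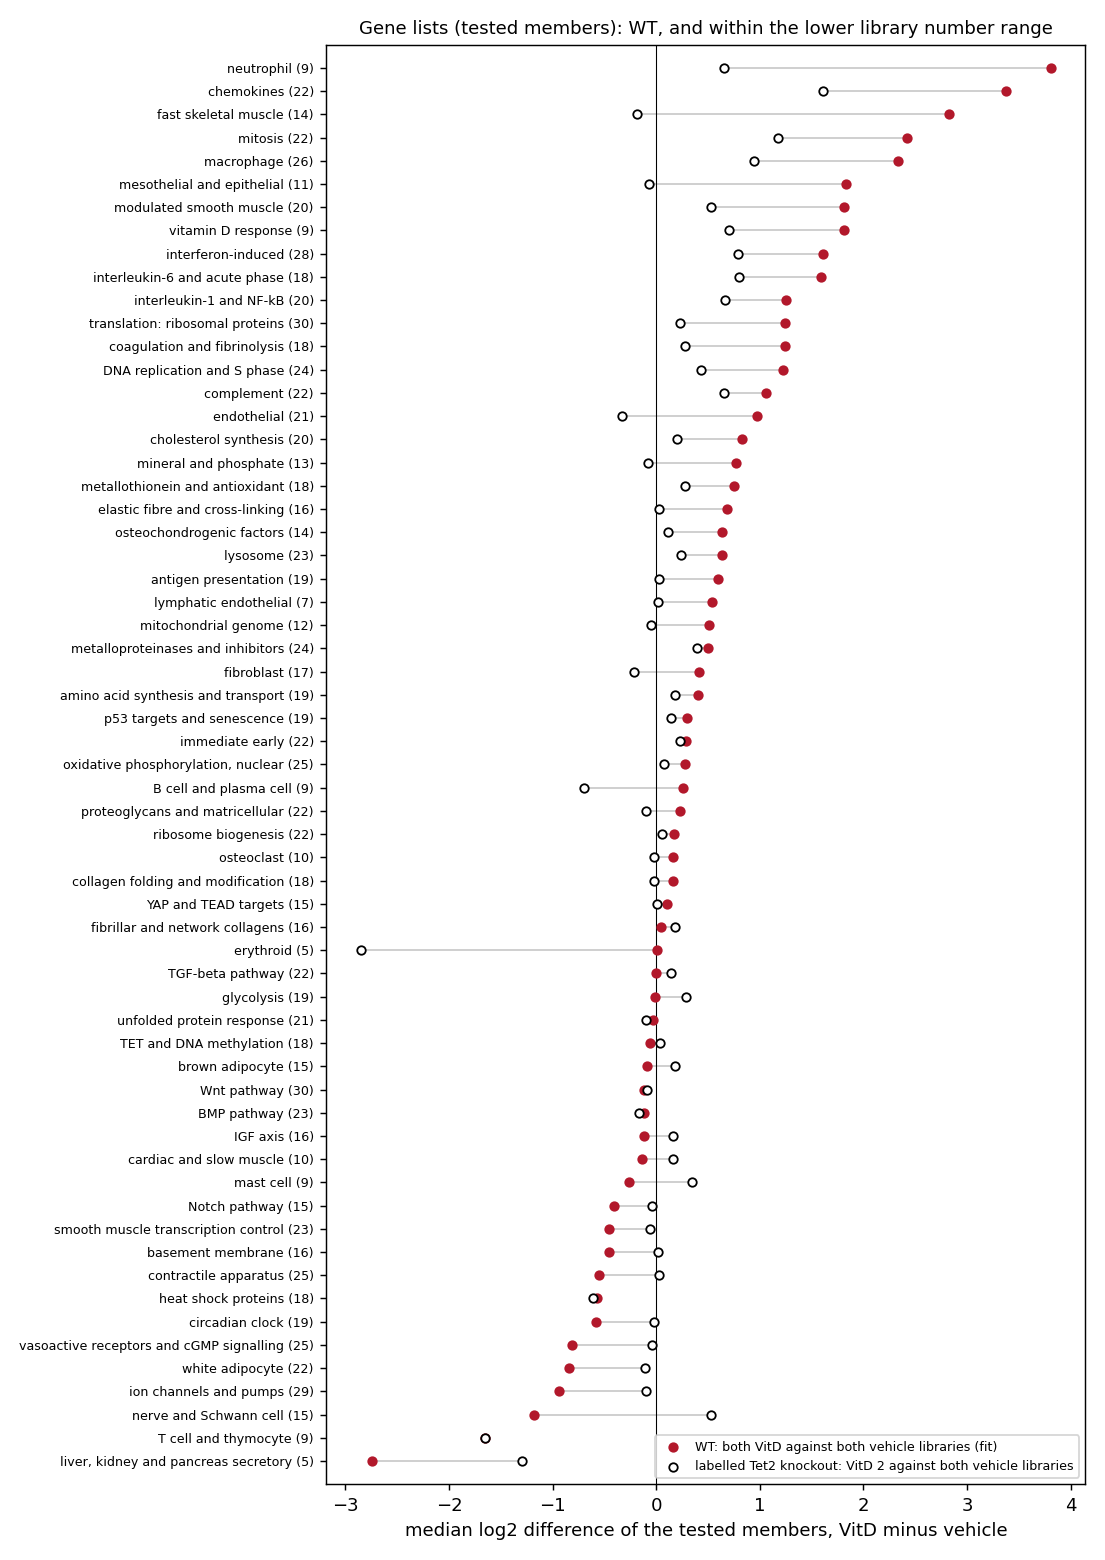
Median log2 difference of the tested members of each of 61 gene lists in WT (red) and in the in-range comparison (open), on 1 axis. Chemokines (3.38 and 1.61), mitosis (2.42 and 1.18) and macrophages (2.33 and 0.95) lie right of 0 in both, whereas fast skeletal muscle (2.83 and -0.19) and the endothelial list (0.97 and -0.33) lie on opposite sides; the difference was not tested.

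Genes of the interleukin-6 and acute phase response rose: 11 of 18 tested members were called higher and 0 lower (median log2 1.59). Interleukin-6 signals through Stat3 and drives acute phase proteins. Serpina3n, a secreted inhibitor of granule proteases, was among the 10 largest gains in CPM of called genes, from 46.96 and 56.3 CPM under vehicle to 1451 and 2013 CPM under VitD (log2 5.07, SE 0.361, adjusted p = 0.000905). It stood at 1012 CPM in the in-range VitD library against 93.1 and 84.3 CPM. Il6 itself had 0 and 2 counts under vehicle and 110 and 206 under VitD, a ratio of 165.0 with an exact 95% interval of 45.3 to 1369, which covers counting error only. In the in-range comparison Il6 had 5 and 3 counts under vehicle and 182 under VitD. Socs3, the feedback inhibitor of the receptor, stood at 8.29 and 8.05 CPM under vehicle and 60.3 and 79.5 CPM under VitD (log2 3.10, SE 0.198, adjusted p = 0.000692). Lcn2, an iron-siderophore binding protein of neutrophils and stressed epithelium, rose from 1.92 and 1.47 to 59.8 and 169 CPM (log2 6.07, SE 0.513, adjusted p = 0.00192), and Saa3, a serum amyloid A protein, from 0.371 and 1.25 to 37.3 and 93.1 CPM. Hp, haptoglobin, rose from 113 and 216 to 1032 and 2255 CPM, and WT_VitD 2 was the higher library for each of Lcn2, Saa3 and Hp. The receptor chains Il6st and Il6ra were not called (log2 0.65 and 0.41). Serpina3 and Saa genes have close relatives whose reads the counting could have split, so their values are uncertain. At least 7 of the 11 calls held under each omission of 1 library (fewest without WT_vehicle 2), and 15 of 18 members lay above both vehicle libraries in range.

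Chemokines, which steer leukocytes into tissue, had a list median log2 of 3.38, and 18 of 22 tested members were called higher and 0 lower. Ccl2, the main attractant of monocytes, stood at 0.804 and 0.793 CPM under vehicle and 14.2 and 24.7 CPM under VitD (log2 4.60, SE 0.396, adjusted p = 0.00201). In the in-range comparison Ccl2 stood at 1.11 and 1.51 CPM under vehicle and 9.3 CPM under VitD. Ccl8, which attracts monocytes and T cells, rose from 1.67 and 1.87 to 51.9 and 62.1 CPM, and Cxcl12, a homeostatic stromal chemokine, from 166 and 195 to 739.8 and 954 CPM. Cxcl13, the B cell attractant, rose from 1.05 and 1.36 to 64.5 and 120.2 CPM (log2 6.25, SE 0.756, adjusted p = 0.00341). Cxcl9 and Cxcl10, which interferon gamma induces, were not called (log2 -0.84 and 0.66). Fewest calls, 9 of 18, were kept without WT_VitD 2. In the interleukin-1 and NF-kB list, 11 of 20 members rose and 0 fell (median log2 1.25). Ptgs2, the inducible cyclooxygenase, went from 12.7 and 10.6 to 126 and 141 CPM, Il1b from 0.804 and 0.397 to 10.5 and 11.97 CPM and the alarmin Il33 from 41.9 and 25.6 to 161 and 359 CPM. The counts kept without WT_vehicle 1, WT_vehicle 2, WT_VitD 1 and WT_VitD 2 were 3, 4, 9 and 5 of the 11.

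Macrophage genes rose almost as a whole: 25 of 26 tested members were called higher and 0 lower (median log2 2.33), and 25 of 26 lay above both vehicle libraries in range. The member not called was Gpnmb (log2 -0.45), a lysosomal glycoprotein. Cd68, the common macrophage marker, stood at 12.4 and 10.3 CPM under vehicle and 53.3 and 63.4 CPM under VitD (log2 2.37, SE 0.262, adjusted p = 0.00254), with 39.2 CPM against 15.5 and 18.6 CPM in range. Ctss, an elastin-cleaving cathepsin, rose from 25.6 and 20.8 to 147 and 196 CPM, and Trem2, a lipid receptor of phagocytes, from 2.54 and 2.55 to 28.7 and 42.3 CPM (log2 3.80, SE 0.378, adjusted p = 0.00254). Chil3, a chitinase-like protein of alternatively activated macrophages, rose from 0.557 and 0.283 to 63.5 and 123 CPM (log2 7.79, SE 0.889, adjusted p = 0.00296). The summed list took 0.0946% and 0.0932% of counts under vehicle and 0.412% and 0.52% under VitD in WT, and 0.12% and 0.141% under vehicle and 0.257% under VitD in range. In bulk tissue a larger share of a cell type and more RNA per cell cannot be told apart, here and in every list below. Of 17 neutrophil genes 9 reached the level to be tested, and 7 of the 9 rose (median log2 3.81). Among them were Cxcr2, the receptor for neutrophil attractants, from 0.371 and 0.17 to 3.48 and 7.27 CPM, and Il1r2, the interleukin-1 decoy receptor, from 0.186 and 0.113 to 6.37 and 11.6 CPM. Below that level, the markers Ly6g, Elane and Mpo had 0 to 4 counts in each WT library. The other untested members had more counts in both VitD libraries than in either vehicle library. These untested genes were looked at after their values were seen. In range 6 of the 9 tested members lay above both vehicle libraries, and 5 of the 7 calls lay on the same side as in WT. The summed neutrophil share was 0.00198% and 0.00166% under vehicle and 0.0113% and 0.027% under VitD, so WT_VitD 2 was the higher. Of the 25 macrophage calls 11, 15, 22 and 15 were kept without each WT library in the order given above, and of the 7 neutrophil calls 3, 2, 7 and 3.

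No tested lymphocyte gene on the lists was called. Of 18 T cell and thymocyte genes 9 were tested (median log2 -1.65), and of 14 B cell and plasma cell genes 9 (median log2 0.26). At an unadjusted p under 0.05, edgeR had 3 T cell genes lower and 1 B cell gene higher, and DESeq2 called 3 T cell genes lower and limma voom 0 of either list. Cd8a stood at 21.2 and 1.13 CPM under vehicle and 1.68 and 0.63 CPM under VitD, so WT_vehicle 1 alone was high. Each untested T cell and thymocyte gene likewise had its highest WT count in WT_vehicle 1. Rag1, which recombines antigen receptor genes, had 601 and 1 counts under vehicle and 2 and 1 under VitD. In the libraries labelled knockout Rag1 had 61 and 180 counts under vehicle and 2 and 1 under VitD, and it was chosen after its values were seen. Mast cell genes were split, with 3 of 9 higher and 1 lower, the latter being Kit. Osteoclast genes gave 1 rise among 10 tested, near the 12.7% called higher over all genes. The gene was the collagen-cleaving cathepsin Ctsk (48.4 and 46.7 to 80.9 and 96.9 CPM). The Ctsk call was lost without any 1 WT library and with the length trend removed, and in range Ctsk stood at 45.02 CPM against 50.9 and 50.8 CPM.

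Complement, the cascade that tags debris and pathogens, rose in 10 of 22 tested members and fell in 0 (median log2 1.06). C1qc, a chain of the recognition molecule, went from 61.9 and 69.7 to 260.3 and 249.7 CPM, C4b from 106 and 139 to 466 and 489 CPM and the protease Cfi, which degrades C3b, from 1.98 and 0.737 to 22.4 and 32.0034 CPM (log2 4.33, SE 0.519, adjusted p = 0.00329). The 10 calls include Cfi, an inhibitor of the cascade, beside its activators. In range, 15 of 22 members lay above both vehicle libraries, and 4, 10, 9 and 6 of the 10 calls were kept without WT_vehicle 1, WT_vehicle 2, WT_VitD 1 and WT_VitD 2. Lysosomal genes rose in 12 of 23 (median log2 0.63), led by Ctss, Ctsc (84.2 and 75.7 to 161 and 192 CPM) and Cd63 (256 and 265 to 557 and 586 CPM). Without WT_vehicle 1, 1 of the 12 was kept.

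Interferon-induced genes, the antiviral programme switched on by interferon receptors, rose in 20 of 28 tested members and fell in 0 (median log2 1.61). Irf7, the transcription factor that amplifies the response, stood at 9.28 and 7.65 CPM under vehicle and 47.3 and 41.3 CPM under VitD (log2 2.39, SE 0.287, adjusted p = 0.00329), with 44.2 CPM against 14.2 and 10.4 CPM in range. Oas1a, which makes the activator of RNase L, rose from 2.91 and 2.21 to 14.1 and 16.5 CPM, and Bst2, which tethers budding virus, from 38.9 and 35.8 to 91.9985 and 90.7 CPM (log2 1.29, SE 0.159, adjusted p = 0.00344). Stat2 and Irf9 were not called (log2 0.04 and 0.45). In range 26 of 28 members lay above both vehicle libraries and 0 below both. Fewest calls, 6 of 20, were kept without WT_VitD 2. Antigen presentation genes moved less: 6 of 19 rose and 0 fell (median log2 0.60), and 7 lay above and 7 below both vehicle libraries in range. Of these 6, 0, 1, 0 and 0 (and 2 and 2 without Tet2KO_vehicle 1 and 2) were kept without each WT library.

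The promoters of the interferon-induced genes were searched for the core of the interferon-stimulated response element, known from this programme. The searched letters were GAAA, any 2 bases and GAAA again, on either strand, within 250 bases before a RefSeq gene start (GRCm38.p6). They stood in 11 of the 20 members with a promoter in the RefSeq table (55%) and in 344 of all 10623 matched members (3.24%). In this and the later searches a gene counted if any of its starts held the letters. The last 100 bases before the start are shown for 3 called members whose windows hold the match, in lower case with the match in capitals on whichever strand it lies. Overlapping matches run together, and a match is a description of the letters only. The last 100 bases before another Gbp3 start (chr3:142560256-142560355, + strand) hold 0 matches and are not shown. The intervals are chr4:156200819-156200918 (- strand) for Isg15, chr5:120907526-120907625 (- strand) for Oas1a and chr3:142559944-142560043 (+ strand) for Gbp3.
Isg15: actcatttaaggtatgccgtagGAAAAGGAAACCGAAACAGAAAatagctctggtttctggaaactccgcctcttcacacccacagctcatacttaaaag
Oas1a: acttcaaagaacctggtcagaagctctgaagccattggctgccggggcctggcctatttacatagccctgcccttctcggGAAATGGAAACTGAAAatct
Gbp3: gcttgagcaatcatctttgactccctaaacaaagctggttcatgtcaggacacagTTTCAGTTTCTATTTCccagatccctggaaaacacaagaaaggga
Isg15, a ubiquitin-like protein, rose from 3.28 and 3.97 to 24.5 and 18.7 CPM, and Gbp3, a guanylate-binding protein, from 14.9 and 12.7 to 36.4 and 34.9 CPM. Both were shown for their sequence, a choice made after their values were seen.

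Genes of mitosis rose in 21 of 22 tested members and fell in 0 (median log2 2.42), from low levels. Plk1, the kinase that drives mitotic entry, stood at 1.3 and 0.68 CPM under vehicle and 6.57 and 10.1 CPM under VitD (log2 3.08, SE 0.443, adjusted p = 0.00609). Ccnb1, the cyclin partner of Cdk1, rose from 2.1 and 1.08 to 10.7 and 14.03 CPM, and Birc5, a subunit of the chromosomal passenger complex, from 2.41 and 1.42 to 9.65 and 14.1 CPM. All 22 members lay above both vehicle libraries in range, with a median log2 of 1.18, and Plk1 stood there at 4.04 CPM against 1.29 and 1.29 CPM. The calls depended on single libraries: 0 of 21 were kept without WT_VitD 2, against 9, 2 and 16 without WT_vehicle 1, WT_vehicle 2 and WT_VitD 1. The list summed to 0.00936% and 0.00369% of counts under vehicle and 0.0216% and 0.0374% under VitD. Genes of DNA replication rose in 16 of 24 (median log2 1.22), led by the licensing factor Cdt1 (1.42 and 1.25 to 7.71 and 9.22 CPM) and the helicase subunits Mcm5 (5.63 and 4.02 to 15.9 and 26.5 CPM) and Mcm2 (6.25 and 5.5 to 14.3 and 18.3 CPM). Of these 16 calls, 2, 1, 9 and 0 were kept without each WT library. Cdkn1a, the p53 target that blocks cyclin-dependent kinases, rose as well, from 48.3 and 51.8 to 143 and 173 CPM (log2 1.66, SE 0.24, adjusted p = 0.00615), and 5 of 19 p53 target and senescence genes rose while 0 fell. Of these 5 calls, 0, 1, 1 and 0 were kept without each WT library, and 3 lay on the same side in range.

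Mitotic genes share promoter elements, the CCAAT box of NF-Y and the cell cycle homology region (CHR) of the DREAM and MuvB complexes. CCAAT on either strand stood within 250 bases before the start of 16 of 18 matched members (88.9%) and of 39.9% of all 10623 matched genes. TTTGAA, the CHR core, stood in 8 of 18 (44.4%) and in 12.6%. Of 5 searches in all, the other 2 were the metal response element core TGCNCNC in the metallothionein and antioxidant list (7 of 14, 50%, against 57.1% of all) and the CArG box in the contractile apparatus list (3 of 21, 14.3%, against 1.44%). The last 100 bases before the start are shown for 2 genes with CCAAT boxes (Ccnb2, Cdk1) and 2 with a CHR core (Cdc20, Ube2c), with only that motif in capitals on whichever strand it matched. They were chosen after their values were seen, and the intervals are chr9:70421555-70421654 (- strand), chr10:69352913-69353012 (- strand), chr4:118437344-118437443 (- strand) and chr2:164769829-164769928 (+ strand).
Ccnb2: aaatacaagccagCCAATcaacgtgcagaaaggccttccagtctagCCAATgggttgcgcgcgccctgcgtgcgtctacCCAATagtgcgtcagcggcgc
Cdk1: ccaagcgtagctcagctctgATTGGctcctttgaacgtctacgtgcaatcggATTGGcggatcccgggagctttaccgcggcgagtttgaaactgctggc
Cdc20: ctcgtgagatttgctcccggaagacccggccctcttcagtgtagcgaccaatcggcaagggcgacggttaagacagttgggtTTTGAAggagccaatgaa
Ube2c: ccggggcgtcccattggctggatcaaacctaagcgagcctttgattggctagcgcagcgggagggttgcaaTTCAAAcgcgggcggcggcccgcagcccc
Cdk1, the kinase of mitotic entry, stood at 2.66 and 0.737 CPM under vehicle and 12.9 and 20.7 CPM under VitD, and Ube2c, the ubiquitin-conjugating enzyme that works with the anaphase-promoting complex, at 3.4 and 1.19 and 10.3 and 15.7 CPM.

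**Figure D5:**
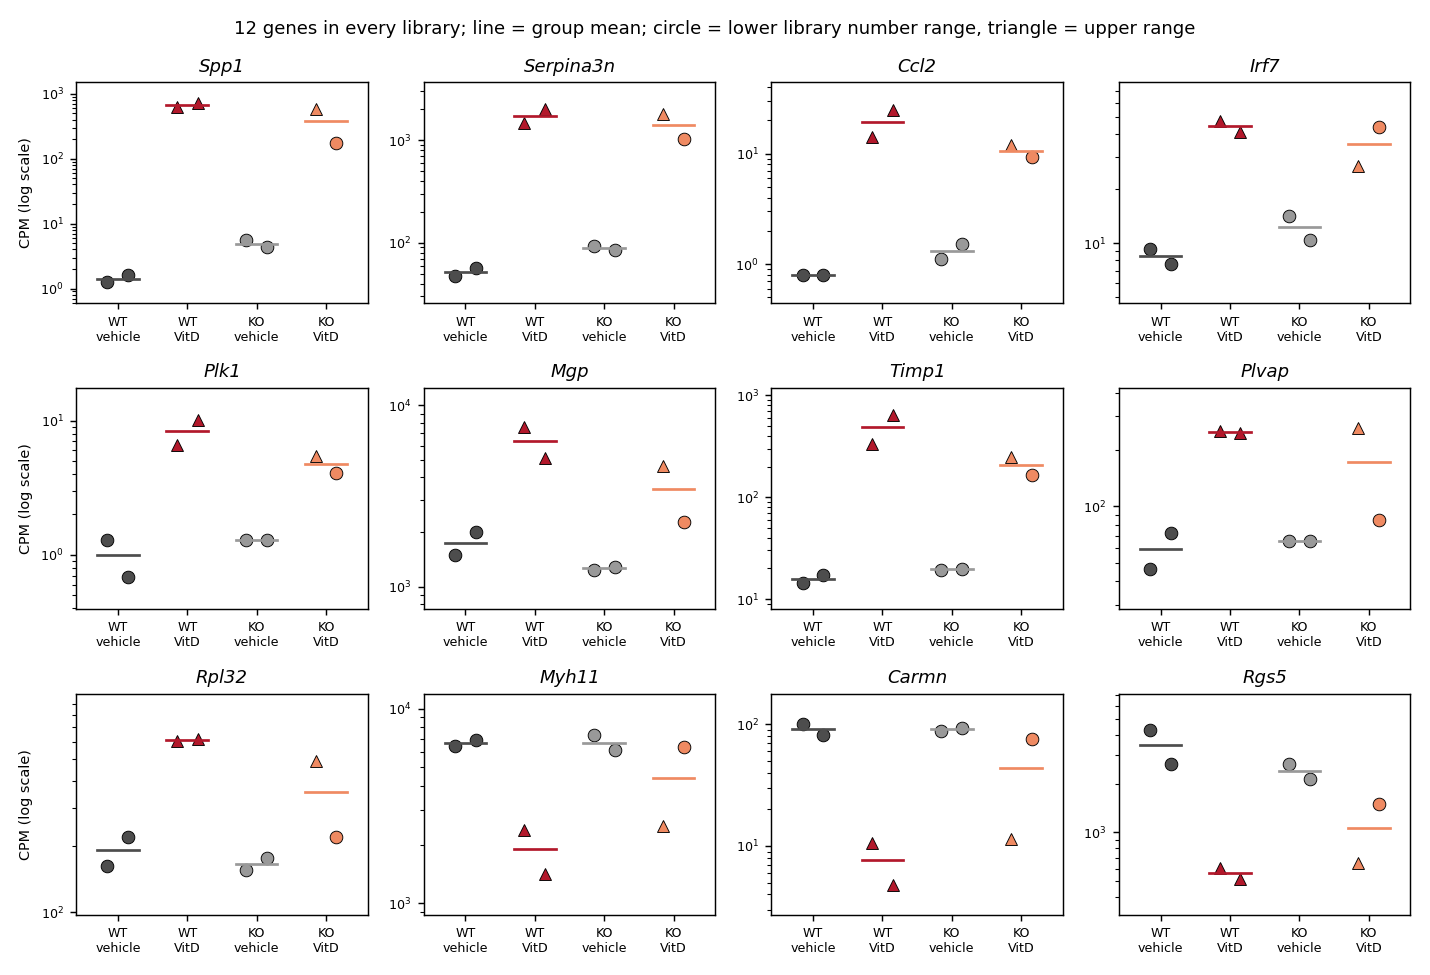
CPM of 12 genes in each of the 8 libraries (log axes that differ between panels; line: group mean; circles: lower library number range, triangles: upper range). Spp1, Serpina3n, Ccl2, Irf7, Plk1 and Timp1 are raised in the circle among the knockout VitD libraries, whereas Myh11, Carmn and Rpl32 lie near vehicle level there.

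Genes of mineral handling changed in part: 5 of 13 tested members rose and 1 fell (median log2 0.77). In range 6 of the 13 lay above and 7 below both vehicle libraries, and 6 of the 6 calls lay on the same side as in WT. Beside Spp1, Alpl, the phosphatase that degrades pyrophosphate, rose from 13.7 and 13.4 to 51.4 and 153 CPM (log2 2.92, SE 0.45, adjusted p = 0.00781). Alpl stood at 78.9 CPM in the in-range VitD library and 21.4 and 16.8 CPM in its vehicle libraries. Mgp, the calcification inhibitor, stood at 1505 and 1992 CPM under vehicle and 7556 and 5124 CPM under VitD (log2 1.86, SE 0.373, adjusted p = 0.015), and at 2277 against 1241 and 1282 CPM in range. Gas6, another vitamin K dependent protein, rose from 490.1 and 538 to 1579.8 and 1682 CPM, and the phosphate transporter Slc20a2 fell from 93.6 and 92.2 to 58.9 and 53.4 CPM. Enpp1 stood at 62.7 and 60.6 CPM under vehicle and 51.1 and 42.1 CPM under VitD and was not called (adjusted p = 0.113). Spp1 alone of these calls held in every fit with 1 library left out: Mgp was lost without any 1 WT library (adjusted p up to 0.102), and Alpl without WT_vehicle 1 or WT_vehicle 2 (up to 0.0712). Fgf23, the hormone that makes the kidney excrete phosphate, missed the level of 1 CPM, taken before TMM scaling, in a second library and so is no member. It had 0 counts in both vehicle libraries and 16 and 35 under VitD, at least 17.8-fold higher against a floor of 3 counts over the vehicle group. In the knockout libraries Fgf23 had 0 counts under vehicle and 20 and 19 under VitD, and it is given here because its values were seen.

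Of 16 vitamin D response genes 9 reached the level to be tested, and 5 of the 9 rose and 0 fell (median log2 1.81). All 16 together took 0.0272% and 0.0265% of counts under vehicle and 0.031% and 0.0366% under VitD. Vdr, the receptor itself, stood at 0.928 and 0.737 CPM under vehicle and 4.02 and 5.95 CPM under VitD (log2 2.58, SE 0.406, adjusted p = 0.00837), and its call was lost without WT_vehicle 1, WT_vehicle 2 or WT_VitD 2 (adjusted p up to 0.0795). In range Vdr stood at 1.29 and 0.951 CPM under vehicle and 4.83 CPM under VitD. Tnfrsf11b, the decoy receptor osteoprotegerin that restrains osteoclasts, rose from 19.9 and 20.6 to 70.3 and 71.7 CPM (log2 1.81, SE 0.216, adjusted p = 0.00329), a call kept in all 8 fits with 1 library left out. Cd14, a lipopolysaccharide co-receptor of myeloid cells that also stands in the macrophage list, rose from 11.3 and 8.27 to 28.1 and 44.1 CPM. Cyp24a1, which inactivates vitamin D and is the most used marker of its action, had 0 counts in all 4 WT libraries, which allows up to 3 counts in each, so it could not be read here.

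Among osteochondrogenic factors 5 of 14 tested members rose and 3 fell (median log2 0.64), against 12.7% and 9.98% over all genes. Sox9, the cartilage master factor, stood at 2.91 and 2.21 CPM under vehicle and 5.09 and 5.55 CPM under VitD (log2 1.06, SE 0.31, adjusted p = 0.0411), and Runx2, its counterpart in bone, at 3.84 and 1.87 and 3.89 and 5.27 CPM without a call (adjusted p = 0.254). Runx3 rose from 0.866 and 1.08 to 3.95 and 5.38 CPM, the cartilage collagen Col11a1 from 1.05 and 0.567 to 2.21 and 9.45 CPM and aggrecan (Acan) from 29.4 and 26.4 to 71.2 and 69.7 CPM. Sox5 and Sox6, partners of Sox9 in cartilage, fell from 12.9 and 12.2 to 6.7 and 5.84 CPM and from 27.7 and 23.1 to 11.1 and 11.6 CPM, and the cartilage protein Chad from 9.9 and 5.16 to 2.41 and 2.06 CPM. In range 7 members lay above and 3 below both vehicle libraries. Sox9 lost its call without any 1 WT library or knockout vehicle library (adjusted p up to 0.202), and 0, 1, 2 and 0 (and 5 and 5 without Tet2KO_vehicle 1 and 2) of the 8 calls were kept without each WT library. In the BMP pathway 3 of 23 rose and 4 fell, against 12.7% and 9.98% over all genes: Bmper, a BMP-binding protein, rose from 6.81 and 7.99 to 24.8 and 52.4 CPM and Bmp4 from 58.7 and 63.2 to 150.1 and 181 CPM, while the receptor Bmpr1a fell from 421 and 275 to 209 and 169 CPM. In the TGF-beta pathway 4 of 22 rose and 1 fell, with Tgfb1 at 34.2 and 40.3 CPM under vehicle and 105 and 114 CPM under VitD and its activator Thbs1 at 179 and 113 and 708 and 1338 CPM (log2 2.81, SE 0.45, adjusted p = 0.00851). Bmp4 and the latent TGF-beta binding protein Ltbp4, which fell from 1525 and 1786 to 1032 and 791 CPM, differed in range by a log2 of -0.42 and -0.56. The 7 BMP and 5 TGF-beta calls were kept in 0, 3, 2 and 0 (and 4 and 4 without Tet2KO_vehicle 1 and 2) and 0, 1, 3 and 0 cases without each WT library.

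The list of genes taken up by modulated smooth muscle cells rose in 13 of 20 tested members and fell in 1 (median log2 1.81), and 16 lay above both vehicle libraries in range. Timp1, an inhibitor of matrix metalloproteinases, stood at 14.5 and 17.2 CPM under vehicle and 330.4 and 646 CPM under VitD (log2 4.94, SE 0.378, adjusted p = 0.00111), with 166 against 19.5 and 19.7 CPM in range. Mmp3, stromelysin, rose from 86.8 and 87.6 to 372 and 505 CPM (log2 2.33, SE 0.236, adjusted p = 0.00254), while Myh10, a non-muscle myosin often used as a marker of the modulated state, fell from 621 and 827 to 362 and 293 CPM. Some of these genes, such as Spp1, are also macrophage genes, so the list does not name a cell. In every fit with 1 library left out 7 of the 14 calls held, and 8, 8, 10 and 9 were kept without each WT library. Metalloproteinases and their inhibitors rose in 9 of 24 and fell in 2, the falls near the 9.98% over all genes. The membrane-type enzyme Mmp14 stood at 64.9 and 87.6 CPM under vehicle and 183 and 277 CPM under VitD. Timp3, a matrix-bound inhibitor, stood at 829 and 666 and 425 and 481 CPM. Of the 11 calls of this list 2, 5, 8 and 2 were kept.

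Structural matrix lists differed in their counts of calls. Of 16 fibrillar and network collagens 2 rose and 0 fell (median log2 0.04): Col8a1, a short-chain collagen of the vessel wall, from 19.9 and 14.2 to 119.6 and 188 CPM, and Col5a2 from 503 and 453 to 1034 and 1441 CPM. Col1a1 stood at 1782 and 2045 CPM under vehicle and 2385 and 3610.2 CPM under VitD and was not called. The 2 rises among 16 collagens are near the 12.7% called higher over all genes. Elastic fibre and cross-linking genes rose in 7 of 16 and fell in 1 (median log2 0.69), led by the lysyl oxidases Loxl4 (10.2 and 7.37 to 28.2 and 37.3 CPM) and Lox (403 and 283 to 797 and 1218 CPM, log2 1.56, SE 0.346, adjusted p = 0.0194) and by Fbln2 (227 and 255 to 427 and 573 CPM). Elastin itself (Eln) stood at 3910.1 and 6861 CPM under vehicle and 10544 and 12141 CPM under VitD, above both vehicle libraries but not called (adjusted p = 0.0637). Proteoglycan and matricellular genes rose in 5 of 22 and fell in 4, against 12.7% and 9.98% over all genes. Prg4, the joint lubricant lubricin, rose from 3.46 and 4.42 to 187 and 342 CPM (log2 6.06, SE 0.399, adjusted p = 0.000692). The small leucine-rich proteoglycan Ogn fell from 1666 and 871 to 606 and 318 CPM (log2 -1.46, SE 0.386, adjusted p = 0.0308). Without WT_vehicle 1, WT_vehicle 2, WT_VitD 1 and WT_VitD 2 the calls kept were 1, 0, 4 and 0 of 8 for elastic fibres, 2, 1, 4 and 1 of 9 for proteoglycans and 0, 0, 2 and 0 of 2 for collagens. On the same side in range were 4 of the 8, 8 of the 9 and 2 of the 2. Igfbp4, a secreted binder of insulin-like growth factors, was among the 10 largest gains in CPM, from 537 and 682 to 2163 and 2777 CPM (log2 2.02, SE 0.262, adjusted p = 0.00415).

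Contractile apparatus genes fell in 7 of 25 tested members and rose in 0 (median log2 -0.56). Myh11, smooth muscle myosin heavy chain, stood at 6450.1 and 6935 CPM under vehicle and 2377 and 1423 CPM under VitD (log2 -1.82, SE 0.439, adjusted p = 0.0237). Synpo2, an actin-bundling protein, fell from 879 and 824 to 332 and 187 CPM, the integrin Itga8 from 3925 and 2892 to 1394 and 1014 CPM, smoothelin (Smtn) from 1090.1 and 1351 to 578 and 375 CPM and the crosslinker Flna from 9865 and 11493 to 4579.9 and 3317 CPM. The most used markers were not called: Acta2 had a log2 of -0.56 (adjusted p = 0.21), Cnn1 of -0.33 (adjusted p = 0.333) and Tagln of 0.06 (adjusted p = 0.88). In range 7 members lay above and 9 below both vehicle libraries (median log2 0.02). Myh11 stood there at 7282 and 6109 CPM under vehicle and 6313 CPM under VitD, but at 2502 CPM in the knockout VitD library of the upper number range. Of the 7 calls 0, 0, 2 and 0 were kept without each WT library, and Myh11 was lost without any 1 of them (adjusted p up to 0.166). With the length trend removed, 6 of the 7 kept their call.

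Regulators of the contractile programme fell in 5 of 23 and rose in 0. Notch3, the receptor that maintains arterial smooth muscle, stood at 69.9 and 84.7 CPM under vehicle and 16.9 and 17.98 CPM under VitD (log2 -2.15, SE 0.426, adjusted p = 0.0144), Mef2c at 191 and 140.1 and 88.4 and 69.9 CPM, and Mef2d at 206 and 208 and 111 and 105 CPM. Myocd, the coactivator that defines the smooth muscle programme, stood at 137 and 125 CPM under vehicle and 74.5 and 65.7 CPM under VitD without a call (adjusted p = 0.154), and Klf4, its antagonist, at 76.6 and 86.1 and 111 and 79.4 CPM. Carmn, the smooth muscle long non-coding RNA that hosts the Mir143 and Mir145a cluster, fell from 101 and 81.7 to 10.6 and 4.75 CPM (log2 -3.58, SE 0.758, adjusted p = 0.0172), and reads at Mir143 from 13.2 and 15.4 to 1.27 and 0.344 CPM. Reads at Mir23b, from another cluster, fell from 8.72 and 9.91 to 0.67 and 0.115 CPM. Poly-A libraries do not capture mature microRNAs, so these reads stem from longer transcripts. In range Carmn stood at 88.4 and 93.2 CPM under vehicle and 75.8 CPM under VitD. Of the 5 regulators 0, 0, 1 and 0 (and 3 and 3 without Tet2KO_vehicle 1 and 2) kept their call without each WT library, Notch3 reached an adjusted p of 0.116 and Carmn of 0.141.

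Most genes that set vessel tone were not called, and those called mostly fell. Ion channels and pumps fell in 11 of 29 tested members and rose in 1 (median log2 -0.94), and vasoactive receptors and cGMP signalling fell in 9 of 25 and rose in 3 (median log2 -0.81). Itpr1, the calcium release channel, went from 343 and 324 to 129 and 97.7 CPM, Kcnma1, the large-conductance potassium channel, from 46.8 and 35.2 to 18.8 and 11.1 CPM, and Kcnab1, an auxiliary subunit of voltage-gated potassium channels, from 155 and 64.02 to 28.2 and 14.1 CPM. Rgs5, a brake on G protein signalling in mural cells, fell from 4253 and 2629.7 to 607 and 519 CPM (log2 -2.61, SE 0.421, adjusted p = 0.00872), and in range stood at 2639 and 2145 CPM under vehicle and 1487 CPM under VitD. The nitric oxide receptor subunit Gucy1a3 fell from 177 and 159.8 to 60.4 and 34.5 CPM and the natriuretic peptide receptor Npr1 from 473 and 508 to 236 and 190.3 CPM. Ednrb, the endothelin B receptor, rose from 9.4 and 9.91 to 34.2 and 51.1 CPM (log2 2.14, SE 0.228, adjusted p = 0.00254) and was the 1 call of this list kept in every fit with 1 library left out. Channel calls were kept in 0, 4, 4 and 0 of 12 cases without each WT library and receptor calls in 1, 2, 5 and 1 of 12. In range 6 channels lay above and 13 below both vehicle libraries, and 7 of the 12 channel calls and 8 of the 12 receptor calls lay on the same side as in WT.

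Endothelial genes rose in 6 of 21 tested members and fell in 0 (median log2 0.97). In range 5 of the 21 lay above and 13 below both vehicle libraries. Of the 6 calls, 5 lay above both there, so the members below both were mostly genes not called in WT. Selp and Sele, the selectins that capture leukocytes, rose from 18.1 and 18.02 to 111 and 133 CPM and from 5.88 and 2.49 to 50.1 and 59.9 CPM. Plvap, of fenestrated endothelium, rose from 46.7 and 72.6 to 251 and 244 CPM (log2 2.05, SE 0.451, adjusted p = 0.0189), and Pecam1 was not called (adjusted p = 0.239). The summed list took 0.233% and 0.229% of counts under vehicle, 0.428% and 0.396% under VitD, 0.668% in Tet2KO_VitD 1 and 0.207% in Tet2KO_VitD 2. Of the 6 calls 0, 0, 2 and 0 (and 4 and 3 without Tet2KO_vehicle 1 and 2) were kept without each WT library. Coagulation and fibrinolysis genes rose in 10 of 18 and fell in 2: Plaur, the urokinase receptor, went from 13.3 and 17.1 to 63.1 and 72.9 CPM (log2 2.16, SE 0.313, adjusted p = 0.00611) and its ligand Plau from 15.2 and 17.4 to 34.5 and 41.8 CPM, while tissue factor (F3) fell from 243 and 136 to 103 and 94.2 CPM. In range 11 of the 18 lay above both vehicle libraries, and 0, 3, 9 and 0 of the 12 calls were kept without each WT library.

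Ribosomal protein genes rose in 29 of 30 tested members and fell in 0 (median log2 1.24), in step with the library share given above. Rpsa went from 764 and 629 to 1849 and 1983 CPM, Rps24 from 345 and 343 to 1037 and 1031 CPM and Rpl38 from 80.7 and 124 to 324 and 298 CPM (log2 1.60, SE 0.327, adjusted p = 0.0156). In range 26 of 30 lay above both vehicle libraries by a median log2 of 0.23, and with the range as a covariate the list's median was 0.36. Of the 29 calls 0, 1, 1 and 0 (and 18 and 18 without Tet2KO_vehicle 1 and 2) were kept without each WT library, and 16 with the length trend removed. Metallothionein and antioxidant genes rose in 10 of 18 and fell in 0 (median log2 0.75). The metal-binding Mt1 rose from 148 and 78.5 to 828 and 1216 CPM, the heme-degrading enzyme Hmox1 from 17.3 and 15.8 to 87.7 and 118 CPM (log2 2.64, SE 0.386, adjusted p = 0.00634) and the secreted peroxidase Gpx3 from 218 and 232 to 888 and 793 CPM. Cholesterol synthesis genes rose in 9 of 20 and fell in 0 (median log2 0.82), led by Hsd17b7 (6.19 and 7.37 to 18.2 and 23.8 CPM) and squalene epoxidase (Sqle, 18.9 and 25.7 to 49.99 and 57.8 CPM). Clock genes fell in 4 of 19 and rose in 0, led by Nr1d1 (342 and 204 to 76.7 and 59.9993 CPM), Per3 (87.98 and 48.6 to 25.7 and 21.1 CPM) and Dbp (92.5 and 59.4 to 34.6 and 21.98 CPM). Heat shock genes fell in 4 of 18 and rose in 1, with Hspa1a at 90.6 and 215 CPM under vehicle and 30.6 and 18.7 CPM under VitD. The calls kept without WT_vehicle 1, WT_vehicle 2, WT_VitD 1 and WT_VitD 2 were 2, 2, 4 and 2 of 10 antioxidant, 0, 2, 2 and 0 of 9 cholesterol, 0, 2, 0 and 0 of 4 clock and 0, 0, 1 and 0 of 5 heat shock calls. On the same side in range were 9 of the 10 antioxidant, 3 of the 9 cholesterol, 1 of the 4 clock and 5 of the 5 heat shock calls. Immediate early genes, which answer handling and injury within minutes, rose in 6 of 22. Among them were Junb (23.8 and 30.6 to 103 and 119 CPM) and Myc (4.64 and 4.99 to 26.5 and 25.6 CPM), both kept in every fit with 1 library left out. The other calls of this list were each lost in at least 1 of those fits. The unfolded protein response list gave 1 rise and 1 fall in 21, both below the 12.7% and 9.98% over all genes.

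Markers of tissues around the aorta were measured as well. Fast skeletal muscle genes rose in 10 of 14 tested members and fell in 1 (median log2 2.83), and the list summed to 0.0191% and 0.0159% of counts under vehicle, 0.0187% in WT_VitD 1 and 0.0586% in WT_VitD 2. Actn3, alpha-actinin of fast fibres, stood at 2.04 and 1.7 CPM under vehicle and 8.98 and 36.9 CPM under VitD, and 4 of 14 members lay above and 6 below both vehicle libraries in range. Mesothelial genes rose in 7 of 11 (median log2 1.83), with mesothelin (Msln) at 6.99 and 6.52 CPM under vehicle and 31.4 and 77.3 CPM under VitD, and 0 lay above both vehicle libraries in range. White fat cell genes were called lower in 3 of 22 and higher in 0, near the 9.98% called lower over all genes. The fatty acid synthase Fasn stood at 1062 and 4519.9 CPM under vehicle and 157 and 143 CPM under VitD (log2 -4.22, SE 1.29, adjusted p = 0.0463), and its call was lost without any 1 WT library or knockout vehicle library (adjusted p up to 0.22). In range Fasn stood at 3334 CPM under VitD, between the 2482 and 3886 CPM of its vehicle libraries, and with the range as a covariate its log2 was 0.68. The summed fat list was 0.802% and 2.05% under vehicle and 0.493% and 0.648% under VitD. Of 15 nerve and Schwann cell genes 1 was called lower (Ncam1, 292 and 280.5 to 108 and 72.9 CPM), a share below that over all genes, and 0 higher, and 11 of 15 lay above both vehicle libraries in range. Mup3, a liver urinary protein, stood at 1.42 and 11.7 CPM under vehicle and 0.134 and 0.172 CPM under VitD, and its paralogs make its counts uncertain. Kept calls without each WT library were 0, 0, 11 and 0 of 11 for muscle, 0, 0, 3 and 0 of 7 for mesothelium and 0, 0, 0 and 0 (and 1 and 1 without Tet2KO_vehicle 1 and 2) of 3 for fat. The part of these tissues in the other results was not tested.

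The replicates within each WT group differed at some genes. Between the VitD libraries 32 genes with at least 5 CPM in the higher library differed at least 4-fold, 22 of them higher in WT_VitD 2 and 10 in WT_VitD 1, and 14 of the 32 were called. Between the vehicle libraries 72 genes did so, 54 higher in WT_vehicle 2 and 18 in WT_vehicle 1, and 7 were called. Lars2, Gm23935 and Rn18s-rs5 were among the 10 largest gains in CPM, and symbols of this kind can collect reads of ribosomal RNA. Lars2, whose locus encodes a mitochondrial leucyl-tRNA synthetase, stood at 217 and 139 CPM under vehicle and 3885 and 1066 CPM under VitD. Rn18s-rs5 stood at 514 and 369 CPM under vehicle and 9443 and 626 CPM under VitD, so WT_VitD 1 made most of the gain.

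The response in WT was compared with that in the labelled knockout by the interaction of treatment and genotype. For that interaction edgeR called 0 of the 14453 tested genes, and 839 of them had an unadjusted p under 0.05. With no interaction at all, a share of 0.05 would be expected to pass that unadjusted threshold. The design had 2 libraries per group, and 1 knockout VitD library shares the number range of all vehicle libraries.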

How the data were processed

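Poly-A RNA of whole aortic tree was sequenced from stranded libraries, per the labels' protocols. The authors deposited unnormalised read counts by gene symbol. Per the submitters' processing notes the tools were Trimmomatic 0.39, STAR 2.7.8a and featureCounts 2.0.2, with mm10. The sources used here give no annotation release, no strand setting and no handling of multi-mapped reads. Counts of overlapping or near-identical genes are therefore uncertain.

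Groups and replicate numbers came from the sample titles. Genes with at least 1 CPM (before TMM scaling) in at least 2 of the 4 WT libraries were fitted with edgeR 4.0.16 (R 4.3.3): TMM normalisation, a quasi-likelihood model with 1 mean for each of 4 groups over all 8 libraries (4 residual degrees of freedom), and Benjamini-Hochberg adjustment over 14453 genes, threshold 0.05. CPM values are TMM-normalised. SE is the log2 fold change divided by the root of F. The in-range comparison used log2 CPM with a prior count of 2. The 2 libraries per group limit precision, and intervals and floors cover counting error only. In simulated counts of these 14453 genes, with 100 genes moved by 1 log2 unit and 100 by 2, the fit found 14% and 83% of them and made 6 false calls. Far fewer genes moved there than were called in the data, and no number range or length trend was simulated. These figures therefore do not carry over to the WT contrast.

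Members and lists were chosen with earlier results of these data known. Names followed a rule: 20 genes always given as values, the 10 largest rises, falls, gains and losses (at least 5 CPM), and up to 3 called members per list and direction, or 2 with the smallest p. Genes named beyond it (Cxcl9, Cxcl10, Gpnmb, Stat2, Stat3, Irf9, Il6st, Il6ra, Mir145a, Rpl32 and those said to be so in the text) were chosen after their values were seen. Of the members, 14058 (97.27%) matched 1 gene of GENCODE M21 and promoters came from RefSeq (GRCm38.p6). Alternatives were DESeq2 1.42.0 and its size factors, upper quartile normalisation, limma 3.58.1 voom, 2 other filters, a fit of WT alone, a replicate block, the number range as a covariate, each library left out and, added after seeing the data, removal of each library's trend with transcript length. WT replicates of a group differed by more than counting noise (chi-square per degree of freedom 47.8 for vehicle, 40.6 for VitD).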

Additional observations from a re-analysis of the deposited data

How the results depend on the processing

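The number of genes called moved with the setting. It was 58 with the number range in the model (56 higher, 2 lower), and for lower genes 2203 with limma voom, 2302 with no filter and 2251 with only the 4 WT libraries. With 1 library left out the totals ranged from 158 to 4975, the higher genes from 154 to 2661 and the lower genes from 4 to 2321. Totals lay between 2568 (replicate block) and 4808 (no filter) under the other settings, with 4091 for DESeq2, 4732 for voom, 4554 for the 4 WT libraries and 2714 with the length trend removed. Whether libraries with the same replicate number share more than that number is not stated in the sources used here. The deviations of WT_vehicle 1 and WT_VitD 1 from their group means correlated by -0.09 over genes, which cannot settle it. The block called 1482 higher and 1086 lower genes. Fold changes (log2) turned with the range in the model for Acta2 (0.046), Bmp4 (-0.12), Cxcl10 (-0.53), Cxcl9 (1.04), Fasn (0.68), Klf4 (-0.47), Pecam1 (-0.93), Sox6 (0.036) and Tagln (-0.35). Removing the length trend turned Adipoq (-0.32) and Tagln (-0.22). With 1 library left out the sign turned for 6 genes, whose values ranged from -0.27 to 0.52 for Adipoq, -4.21 to 0.0079 for Cd8a, -0.062 to 1.19 for Cxcl10, -0.056 to 0.45 for Klf4, -0.19 to 0.31 for Stat2 and -0.25 to 0.31 for Tagln. Of these, Bmp4, Fasn and Sox6 were called with all 8 libraries. The cause was not tested. Groups of 2 libraries and treatment that follows the number range are limits, and low counts limit genes such as Fgf23 and Cyp24a1.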

Other observations

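In Tet2KO_VitD 1, 22 genes with at least 5 CPM in each of the other 7 libraries stood more than 4-fold below every one of them, against 3 genes in the library with the next most. Rrp1, a ribosomal RNA processing factor, stood at 3.65 CPM there and 100.4 and 117 CPM under vehicle and 114 and 104 CPM under VitD in WT. Rrp12 had 0.556 CPM against 11.9 and 15.1 and 14.1 and 15.7 CPM, and Rrp7a 1.73 CPM against 33.7 and 41.6 and 55.9 and 55.2 CPM. Rpl12, a ribosomal protein gene, had 18.4 CPM against 308 and 317 and 848 and 895 CPM, although the ribosomal proteins as a whole took 4.86% of that library's counts. Hsp90aa1, a heat shock chaperone, had 8.9 CPM against 1038 and 622 and 477 and 429 CPM, and the mitochondrial ribosomal RNA mt-Rnr2 6.12 CPM against 1383 and 686 and 1212 and 755 CPM. The brown fat uncoupler Ucp1 had 47.5 CPM against 253 and 442 and 569 and 386 CPM. Of the 22 genes, 13 were among the 58 called in WT with the number range as a covariate, a fit in which this library weighs on the WT contrast, and 15 of the 58 were not called in WT without the covariate. These genes were chosen after their values were seen.

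Antisense transcripts were called lower more often than higher: of 223 tested, 46 were lower (20.6%) and 3 higher (1.35%). Of 216 long intergenic RNAs 38 were lower (17.6%) and 14 higher (6.48%), against 9.4% lower and 13.2% higher among 13024 protein-coding genes. The sources used here do not give the strand setting of the counting, so reads of an antisense gene and its partner may not be separable.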
